A study of Mus musculus with 16 samples.

Results

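H2AK119ub1 peaks were compared between wild type NPC and PCGF5-depleted NPC, both at day 6 of neural differentiation. The members were the 5754 peaks of the wild type list and the 3845 peaks of the shPCGF5 list, together 9599 of the 86279 peaks in the 10 lists of the series. A wild type peak was called kept when at least 1 bp of it lay in a shPCGF5 peak and lost otherwise, and a shPCGF5 peak without such overlap was called gained. A gene was called marked when the centre of a peak lay within 2500 bp of 1 of its protein-coding start sites. Genes marked in both lists were called kept, those marked in wild type alone lost, and those marked in shPCGF5 alone gained.

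Both NPC libraries came from a mouse ES line in which GFP marks expression of Sox1, a transcription factor of early neural precursors, and which differentiated in suspension. The control carried the genotype label wild type and the other library the label shPCGF5. Per the methods of the study, deficient lines of this kind were made with a lentiviral short hairpin RNA against Pcgf5, selected with puromycin and picked as clonal clusters, so the shPCGF5 library may stand for 1 clone. Each group had 1 library, hence no test between the conditions was possible, and the effect of PCGF5 depletion cannot be told apart from any other difference between the 2 libraries. Chromatin immunoprecipitation gives no PCGF5 level, and the depletion itself could not be checked here. Intervals are 95% Wilson intervals of a share and cover counting error only, and neighbouring peaks are not independent.

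PCGF5 is a subunit of variant forms of Polycomb repressive complex PRC1, in which RING1A or RING1B attaches ubiquitin to a lysine of histone H2A and so writes H2AK119ub1. PRC2, a separate complex, trimethylates a lysine of histone H3 and so writes H3K27me3, and each mark can help to bring in the complex that writes the other. In ES cells and early precursors both marks lie over silent developmental genes, mostly at start sites rich in CG dinucleotides, where the mark is removed as a lineage turns its own genes on.

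Of the wild type peaks, 1496 were kept and 4258 (74%) were lost, and of the shPCGF5 peaks 1615 were kept and 2230 (58%) were gained. A lost peak was defined by peak calls and not by signal, and a missing peak does not show that the mark was absent. Sequences of 5 peaks are printed from the NCBIM37 assembly (mm9), on the plus strand in lower case with each CG dinucleotide in capitals. The first 3 were the peaks with the highest score of the kept, lost and gained classes at the start site of a named gene whose central 300 bases held no annotated UTR, and they show what stood at the top of each class. The kept window lay near Hes3, a transcriptional repressor of the Notch pathway, at chr4:151663292-151663591, and consisted of short tandem repeats with 0 CG. The lost window lay 2407 bp downstream of the first start site of Lhx5, a LIM homeobox gene of the developing forebrain, at chr5:120884152-120884451, with 4 CG. The gene Lhx5 itself counted as kept, because its start site had peaks in both lists. The gained window lay at Gm10722 on chr9:3001038-3001337, in a tandemly repeated stretch whose central 32 bases occurred 44 times in the assembly. The remaining 2 windows were chosen after their values were seen, as examples of gained peaks at genes that the study examined. They are the shPCGF5 peak at -1121 bp from the first start site of Pou3f2 (upstream), a POU transcription factor of neural precursors, at chr4:22416492-22416710, with 15 CG in 219 bases, and the one 743 bp downstream of the start of Nes, the intermediate filament nestin, at chr3:87775681-87775834, with 17 CG in 154 bases.
Hes3, kept: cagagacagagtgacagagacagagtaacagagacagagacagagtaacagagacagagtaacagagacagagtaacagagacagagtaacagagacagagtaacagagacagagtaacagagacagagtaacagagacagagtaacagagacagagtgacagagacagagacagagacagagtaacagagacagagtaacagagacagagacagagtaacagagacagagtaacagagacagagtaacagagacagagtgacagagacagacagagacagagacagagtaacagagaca
Lhx5, lost: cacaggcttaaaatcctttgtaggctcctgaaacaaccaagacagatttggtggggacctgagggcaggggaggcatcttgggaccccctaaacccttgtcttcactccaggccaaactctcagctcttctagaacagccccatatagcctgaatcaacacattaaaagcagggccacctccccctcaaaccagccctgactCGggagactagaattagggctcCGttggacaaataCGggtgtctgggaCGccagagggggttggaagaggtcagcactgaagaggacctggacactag
Gm10722, gained: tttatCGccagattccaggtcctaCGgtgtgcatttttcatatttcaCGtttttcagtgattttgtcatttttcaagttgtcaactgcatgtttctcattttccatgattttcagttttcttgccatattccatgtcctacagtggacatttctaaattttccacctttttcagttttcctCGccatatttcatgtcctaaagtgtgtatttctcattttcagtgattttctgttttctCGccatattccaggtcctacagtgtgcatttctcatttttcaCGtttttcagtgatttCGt
Pou3f2, gained: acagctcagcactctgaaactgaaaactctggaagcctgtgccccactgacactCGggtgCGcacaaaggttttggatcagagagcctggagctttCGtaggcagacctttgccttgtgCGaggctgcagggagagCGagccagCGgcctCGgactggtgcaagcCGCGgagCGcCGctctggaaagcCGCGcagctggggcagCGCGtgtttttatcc
Nes, gained: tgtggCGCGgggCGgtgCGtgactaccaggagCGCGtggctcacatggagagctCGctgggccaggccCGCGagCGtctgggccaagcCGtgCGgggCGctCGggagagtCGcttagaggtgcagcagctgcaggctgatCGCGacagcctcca

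Kept peaks were wider than the others and lay mostly in H3K27me3. The rule of 1 bp favours wide peaks, so the difference in width follows in part from the definition. In the wild type list the median width was 415.5 bp for kept and 239 bp for lost peaks, and in the shPCGF5 list it was 264 bp for kept and 187.5 bp for gained peaks. The median fold over background, which MACS2 gives for each peak, was 4.39 for kept and 4.32 for lost peaks in wild type, and 5.20 for kept and 4.85 for gained peaks in shPCGF5. H3K27me3 peaks of wild type NPC overlapped 94.8% of kept wild type peaks, 76.6% of lost peaks and 52.3% (50.3 to 54.4) of gained peaks. In shPCGF5 NPC the shares were 95.7%, 61.7% (60.3 to 63.2) and 59.4%. Lost peaks thus had H3K27me3 more often in the wild type list and gained peaks more often in the shPCGF5 list. Both shares of a class were taken over the same peaks, so their separate intervals do not compare them. Of the kept wild type peaks, 55.7% were also overlapped by a peak of wild type ES, against 12.8% of lost and 26.2% of gained peaks. Peaks of Flag-PCGF5 in wild type NPC overlapped 6.22% of kept, 3.17% of lost and 5.56% of gained peaks.

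**Figure D1:**
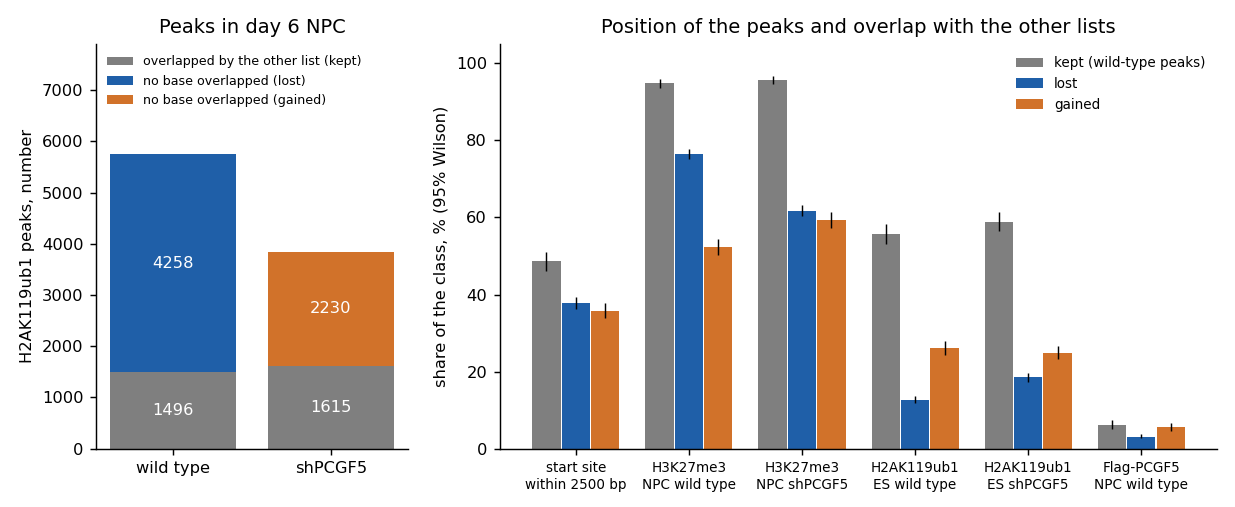
Left, number of H2AK119ub1 peaks in wild type and shPCGF5 NPC, split into peaks with and without overlap with the other list. Right, share of the kept, lost and gained peaks in percent that lay at a start site or overlapped a peak of another list, with 95% Wilson intervals; kept peaks stand highest in H3K27me3 and in ES H2AK119ub1, at 94.8% and 55.7% in the wild type lists.

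Lost peaks lay close to remaining ones. Of the lost peaks, 43.8% lay within 2500 bp of a shPCGF5 peak, with a median distance of 3662.5 bp. Of the gained peaks, 30.7% lay that close to a wild type peak, with a median of 72808 bp. The gained peaks were thus the more distant ones, although they were measured against the longer list. Wide peaks and peaks with small p-values were kept more often, although a wide peak meets the rule of at least 1 bp more easily. When wild type peaks were split into 5 bins of equal number by −log10 p-value, 184 of 1150 peaks were kept in the lowest bin and 540 of 1151 (46.9%) in the highest, and in bins of width the shares ran from 13.5% to 52.4%. By fold no such order was seen in wild type, where 34.6% of the lowest and 33.4% of the highest bin were kept.

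Of 22232 protein-coding genes, 1108 (4.98%) were marked in wild type NPC, 928 (4.17%) in shPCGF5 NPC and 1474 (6.63%) in either. At the level of classes, 562 of 22232 protein-coding genes (2.53%) were kept, 546 (2.46%) were lost and 366 (1.65%) were gained. A kept gene had a median of 779.5 bp covered by wild type peaks within 2500 bp of its start sites and 525.5 bp covered by shPCGF5 peaks. A lost gene had a median of 239.5 bp in wild type, and a gained gene 208 bp in shPCGF5. Lost and gained genes thus had a smaller median coverage than kept genes. Genes with several start sites had longer windows and more places for a peak, and these values were not scaled to window length. Among the kept genes, 391 had fewer covered bp in shPCGF5 and 171 had more, with a median log2 ratio of shPCGF5 to wild type of -0.60 and quartiles of -1.50 and 0.27. The covered length was smaller by a factor of at least 4 at 81 kept genes, and 155 kept genes had their peaks at different places within the window in the 2 lists. Peaks were shared by neighbouring genes at 207 of the 1474 marked genes. When both lists were cut to the same number of top-scoring peaks, 351 genes were lost and 458 were gained, and with a start-site window of 1000 bp 340 were lost and 332 were gained, so no balance of lost and gained genes can be given.

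**Figure D2:**
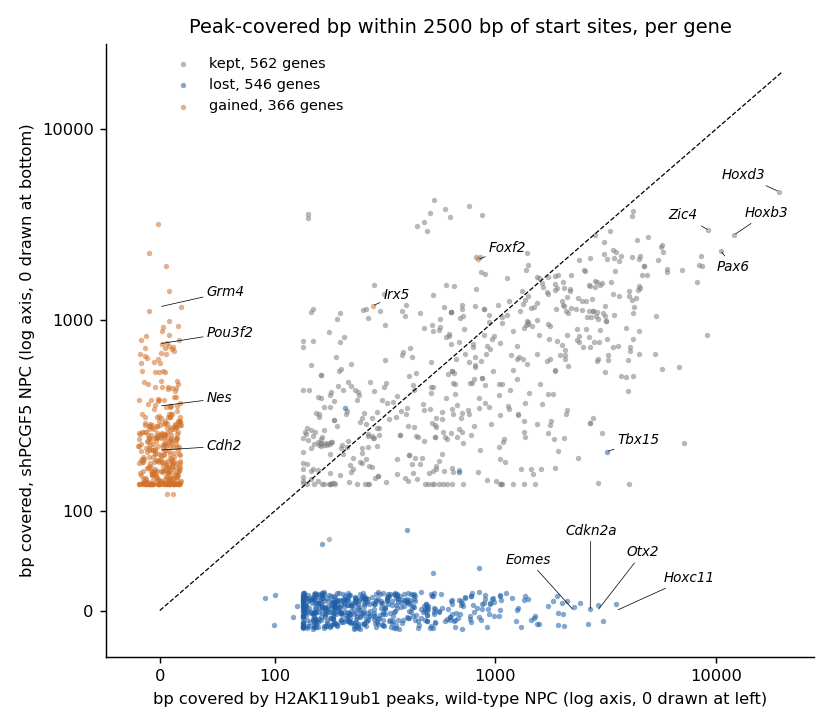
Base pairs covered by H2AK119ub1 peaks within 2500 bp of a gene's start sites in wild type NPC (horizontal) and shPCGF5 NPC (vertical), on log axes, for the 1474 marked genes coloured by class. Genes at 0 in 1 list are drawn along that axis and spread slightly for visibility; the kept genes with the most coverage, such as Hoxd3 (19339 and 4708 bp), lie below the dashed line of equal coverage.

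The 43 gene lists used below were sorted by role. The 15 lists of developmental transcription factors held 239 genes, of which 141 were kept, 23 were lost and 5 were gained. Thus 59.0% of them were kept, against 2.53% of all genes, and 9.62% were lost, against 2.46%. Their covered length was 450298 bp in wild type and 166725 bp in shPCGF5, or 37.0% of wild type, while over all genes it was 52.6%. With the same number of peaks in both lists the value was 41.7% for these factors and 65.6% for all genes. Hox genes alone held 191628 of the 450298 bp and 48326 of the 166725 bp. In these sums, windows of neighbouring genes were counted in each gene. The count of 5 gained factors (Foxf2, Irx5, Pou3f2, Sox10 and Sox11) went up to 39 with peaks within 1000 bp merged and to 20 with a window of 1000 bp. It was 3 when any base of a peak within 2500 bp of the start site counted. Foxf2 and Irx5 had 834 and 277 bp of wild type peaks in their windows, so their class depended on the rule of the peak centre.

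**Figure D3:**
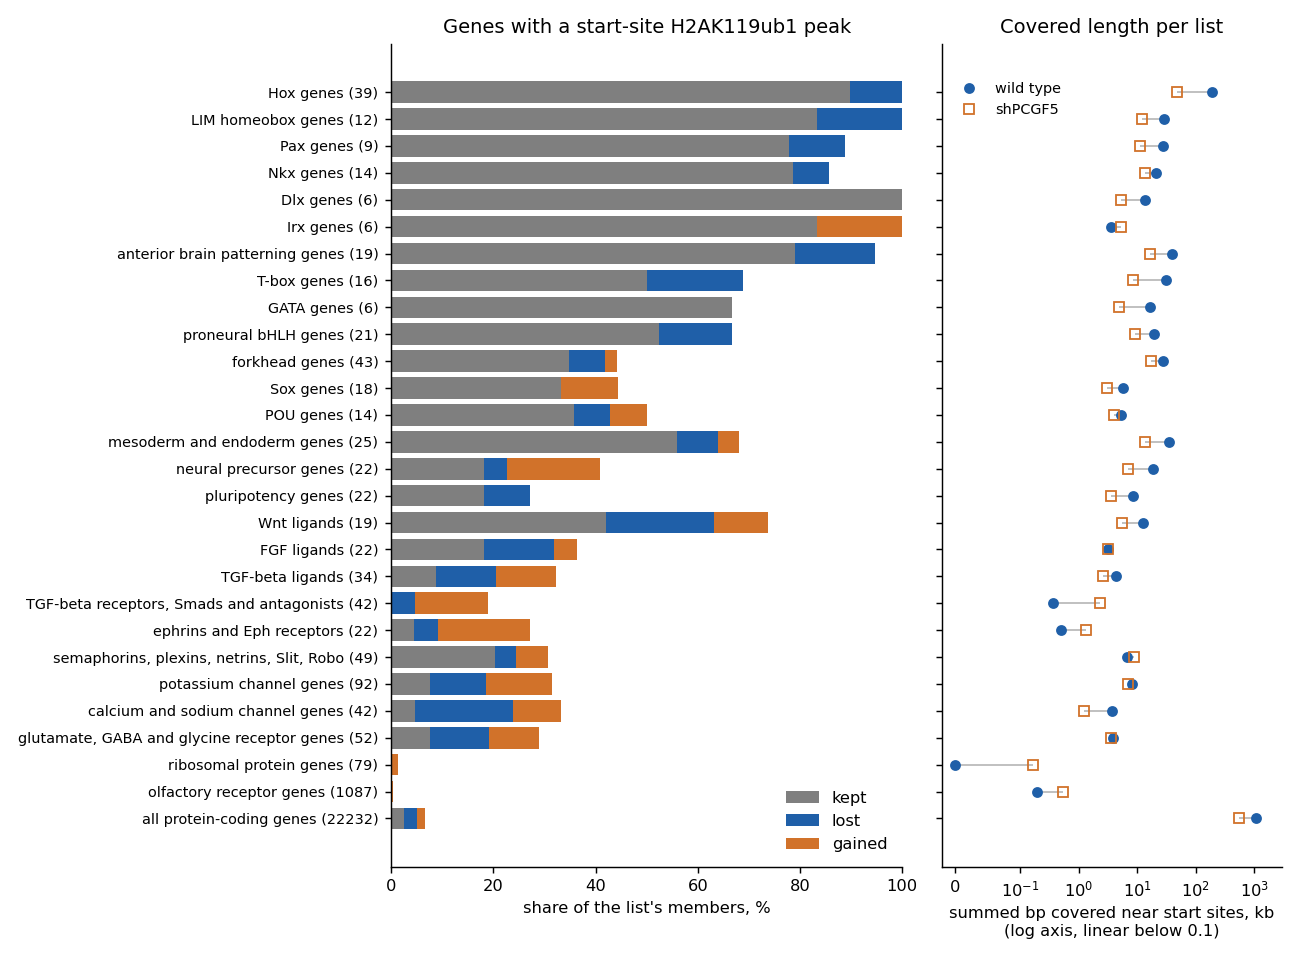
Left, share of the members of each gene list in percent that were kept, lost or gained, with the number of members in brackets; all 39 Hox genes were marked. Right, kb covered by H2AK119ub1 peaks near the members' start sites in wild type (filled circles) and shPCGF5 (open squares), on an axis that is logarithmic above 0.1 kb; most transcription factor lists lie to the left in shPCGF5, whereas the Irx list does not.

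Hox genes, which set position along the body axis, formed the broadest H2AK119ub1 domains in wild type NPC. Of the 39 Hox genes, 35 were kept and 4 were lost, among them Hoxb1, Hoxc11 and Hoxc13. Covered length around their start sites summed to 191628 bp in wild type and 48326 bp in shPCGF5, with windows of neighbouring genes counted in each gene, and it was smaller in shPCGF5 at all 39 genes (38 of 39 with equal numbers of peaks, with q-values of at most 0.01 or with the higher-scoring 50% of each list). Hoxd3 had 19339 bp in wild type and 4708 bp in shPCGF5, Hoxb3 had 12097 and 2794 bp, and Hoxc6 had 9137 and 832 bp. H3K27me3 around the same Hox genes was nearly as long in both lists, 240799 bp in wild type and 211927 bp in shPCGF5. At Hoxd3 it covered 22947 and 19936 bp. The H2AK119ub1 peaks at Hox genes were thus shorter in sum in shPCGF5 while H3K27me3 peaks still covered most of the wild type length.

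Broad regions gave the same picture when they were chosen in wild type. Peaks within 1000 bp of each other formed 247 wild type regions of 5 or more peaks, and wild type peaks covered 1273 kb of them and shPCGF5 peaks 335.6 kb. Fewer bp were covered in shPCGF5 in 234 of these 247 regions, which had been chosen for their wild type peaks. The longest ran over Hoxb3 to Hoxb9 (chr11:96113122-96208719) and held 72931 bp of peaks in wild type and 13764 bp in shPCGF5. The next was a Hoxa region from Hoxa3 to Hoxa11 (chr6:52138097-52206837) with 54951 and 12771 bp. Regions chosen the other way were fewer and went in both directions. In shPCGF5 there were 61 such regions, of which 29 had fewer and 32 had more covered bp than in wild type, with 236.1 kb in shPCGF5 and 183.7 kb in wild type. The largest of them was the repeat stretch at the start of chromosome 9 around Gm10722, with 27994 bp in shPCGF5 and 4087 bp in wild type, and Lbx1, a homeobox gene of dorsal spinal cord and muscle precursors, was the first with a homeobox gene, with 3823 and 5656 bp.

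Among the other homeobox families the share of kept genes varied, and of 14 POU genes 5 were kept, 1 was lost and 1 was gained. All 12 LIM homeobox genes were marked, 10 kept and 2 lost (Isl2 and Lhx3), and all 12 had fewer covered bp in shPCGF5 (28583 and 12140 bp in sum). Of the 9 Pax genes, which pattern neural tube, eye and somites, 7 were kept and Pax8 was lost. Pax6, a gene of forebrain and eye that neural precursors express, had 10494 bp in wild type and 2308 bp in shPCGF5, with H3K27me3 over 17888 and 13796 bp. Among 14 Nkx genes, 11 were kept, and Nkx2-1, which specifies ventral forebrain, had 3400 and 723 bp. The 6 Dlx genes were all kept, with 13664 and 5339 bp in sum. Of 19 anterior brain patterning genes 15 were kept and 3 were lost, among them Otx2 and Rax. Irx genes went the other way in covered length, as 5 of 6 had more bp in shPCGF5 (4 of 6 with q-values of at most 0.01) and the sum was 3642 bp in wild type and 5324 bp in shPCGF5. Irx5 had 277 bp in wild type and 1185 bp in shPCGF5.

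Of the 10 lost genes with the most coverage, 9 had H3K27me3 peaks in both lists, and at Otx2 H3K27me3 was called in wild type alone. Hoxc11 had 3540 bp of wild type peaks and 27 bp of shPCGF5 peaks in its window, Tbx15 had 3195 and 204 bp, and Sim1, a gene of the hypothalamus and kidney, had 3082 and 0 bp. Eomes, a T-box gene of mesendoderm, had 2268 and 0 bp, with H3K27me3 over 4462 and 2784 bp. H3K27me3 remained at these genes, although over fewer bp. Otx2, a gene of epiblast and anterior brain, had 2904 bp of H2AK119ub1 in wild type and 0 bp in shPCGF5, and its H3K27me3 peaks covered 6013 and 0 bp. At Cdkn2a, which encodes cell cycle inhibitors and is a classical Polycomb target, H2AK119ub1 covered 2692 and 0 bp and H3K27me3 5274 and 1086 bp. Bmi1, which encodes the PRC1 subunit PCGF4, had 1929 and 0 bp of H2AK119ub1 and 2730 and 2997 bp of H3K27me3. Gm17649, Gm13334, Hoxc13 and Rax completed the 10 lost genes with the most coverage, with 2631, 2121, 2411 and 2050 bp in wild type.

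T-box, GATA and proneural genes were marked over shorter stretches in shPCGF5, as were genes in general. Covered length was 27.5% of wild type for T-box, 29.6% for GATA and 46.2% for proneural genes, against 52.6% over all genes. With equal numbers of peaks the proneural value was 59.6% and that of all genes 65.6%, so proneural genes were near the general value. Of 16 T-box genes 8 were kept and 3 lost (Eomes, Tbx15 and Tbx20), and their sum was 30820 bp in wild type and 8477 bp in shPCGF5. Gata2, Gata3, Gata4 and Gata6 were kept, with 16240 and 4806 bp in sum. Among 21 proneural bHLH genes, which start neurogenesis, 11 were kept and 3 were lost (Neurod1, Neurog3 and Olig3). Neurod1 had 1347 and 0 bp of H2AK119ub1, and 4437 and 1074 bp of H3K27me3. Forkhead genes were marked at 19 of 43 members, with 15 kept, 3 lost (Foxd4, Foxi2 and Foxq1) and Foxf2 gained. Sox genes had 6 kept and 2 gained members of 18, and Sox11, which neural precursors and young neurons express, had no peak of either mark in wild type and was gained, with H3K27me3 over 713 bp in shPCGF5. Pou3f1, a POU factor of early neural tissue, was kept with 263 and 1026 bp.

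Imprinted genes and Polycomb genes were also examined. Of 31 imprinted genes 6 were kept, 1 was lost and 4 were gained, and Grb10, an adaptor that limits growth, had 6780 bp in wild type and 569 bp in shPCGF5. Of 35 genes of Polycomb subunits, 2 were kept, among them Cbx8, which encodes a PRC1 subunit that binds H3K27me3, Bmi1 was lost and Aebp2, a PRC2 partner, was gained. Pcgf5 itself had no H2AK119ub1 peak at its start sites in either list, and its H3K27me3 peaks covered 720 bp in wild type and 0 bp in shPCGF5.

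Genes of the labelled fate and of other fates differed in class. Of 22 neural precursor genes, 4 were kept (Pax6, Pou3f1, Pou3f3 and Zic1), Otx2 was lost and 4 were gained (Cdh2, Hes5, Nes and Pou3f2), that is 18.2% kept and 18.2% gained, against 2.53% and 1.65% of all genes. Nes had 0 bp in wild type and 354 bp in shPCGF5, and H3K27me3 covered 1252 and 2670 bp there. At Pou3f2 the values were 0 and 751 bp for H2AK119ub1 and 1953 and 3510 bp for H3K27me3. Cdh2, which encodes N-cadherin, had 0 and 208 bp, with H3K27me3 over 0 and 1153 bp, and Hes5, a Notch target of neural precursors, had 0 and 219 bp, with H3K27me3 over 2389 and 4547 bp. H3K27me3, which did not define the class, covered more bp in shPCGF5 at all 4 genes. Over all 22 genes, however, H2AK119ub1 covered 18432 bp in wild type and 6914 bp in shPCGF5, or 37.5% of wild type, and H3K27me3 42768 and 41551 bp. Pax6 alone held 10494 and 2308 bp of the H2AK119ub1 sums. By gene, 4 had fewer and 5 had more H2AK119ub1 bp in shPCGF5, so the sum does not describe most marked members. The study examined Nes, Cdh2 and Pou3f2 in these samples, so they are no independent evidence of a direction. As a check of the NPC label, 2 of 7 neural precursor markers with an annotated start site were kept (Pax6 and Zic1), 3 were gained and 2 were unmarked. Sox2 and Fabp7 had no H2AK119ub1 peak at their start sites in either list, and Sox1 was not analysed here. Of 25 mesoderm and endoderm genes, 14 were kept, 2 were lost (Eomes and Mesp1) and Kdr was gained. Gata4 had 3912 and 909 bp, Sox17 1825 and 407 bp, and Gsc, an organizer gene, 1401 and 1935 bp. Of the 8 mesoderm and endoderm markers 6 were kept, and peaks of a repressive mark do not give the expression of any of these genes.

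Pluripotency genes were marked at 6 of 22 members (27.3%), against 6.63% of all genes. Of these genes 4 were kept (Esrrb, Klf2, Prdm14 and Tbx3) and 2 were lost (Fgf4 and Klf4). Fgf4, a growth factor of ES cells and epiblast, had 479 and 0 bp of H2AK119ub1 and 3159 and 0 bp of H3K27me3. Klf4 had 258 and 0 bp, with H3K27me3 over 2156 and 925 bp. Pou5f1 and Nanog had no peak of either mark at their start sites in the NPC lists. Over the 22 genes H3K27me3 peaks covered 25461 bp in wild type and 9634 bp in shPCGF5, and 5 genes had H3K27me3 in wild type alone and 0 in shPCGF5 alone. Over all genes, 3.74% had H3K27me3 at a start site in wild type alone and 3.54% in shPCGF5 alone.

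Signalling genes were split between the 3 classes. The 10 lists of signalling and guidance genes had 33 kept, 23 lost and 25 gained genes, and 9.77% of their members were thus gained against 1.65% of all genes. Covered length was 38372 bp in wild type and 29736 bp in shPCGF5, but with equal numbers of peaks it was 28018 and 29736 bp, so no direction can be given for the group. Wnt ligands were the most often marked, with 8 kept, 4 lost and 2 gained of 19. Wnt9b, a ligand of kidney and face development, had 1237 bp in wild type and 0 bp in shPCGF5, and Wnt2b had 0 and 881 bp. Wnt7b was kept with 2645 and 1521 bp.

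In the TGF-beta superfamily, a pathway that the study examined, both ligands and regulators included lost and gained genes. Of 34 ligands 3 were kept (Bmp7, Gdf7 and Inhbb), 4 were lost (Bmp2, Bmp4, Gdf6 and Tgfb2) and 4 were gained (Bmp3, Bmp6, Gdf10 and Inha). Gdf6 had 1403 and 0 bp, Bmp2 477 and 0 bp, and Bmp6 0 and 671 bp. Nodal, Lefty1 and Lefty2 had no H2AK119ub1 peak at their start sites in either list. H3K27me3 covered 1379 bp at Nodal and 1638 bp at Lefty1 in wild type and 0 bp at both in shPCGF5. Of 42 receptors, Smads and antagonists none was kept, 2 were lost (Chrdl2 and Id4) and 6 were gained (Bmper, Id3, Nbl1, Nog, Smad6 and Sost). Over all genes 2.53% were kept, 2.46% lost and 1.65% gained. The shares were 8.82%, 11.8% and 11.8% of the ligands and 0%, 4.76% and 14.3% of the regulators. With 42 regulators, the absence of kept genes is near the share over all genes. Nog, a secreted BMP antagonist of the neural plate, had 0 and 438 bp, the inhibitory Smad6 had 0 and 592 bp, and Id3, a BMP target that blocks bHLH factors, had 0 and 263 bp. H3K27me3 covered 0 bp at Id3 in wild type and 2659 bp in shPCGF5. The sum over these regulators was 372 bp in wild type and 2356 bp in shPCGF5. A single Hox gene had a median of 4042 and 1092 bp.

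Guidance genes included both classes as well. Ephrins and Eph receptors had 1 kept gene, 1 lost gene (Epha5) and 4 gained genes (Efna5, Efnb2, Epha2 and Ephb1), and Efna5 had 0 and 226 bp of H2AK119ub1 and 0 and 1887 bp of H3K27me3. Among semaphorins, plexins, netrins, Slit and Robo genes 10 were kept, 2 were lost and 3 were gained of 49. Ntn1, the floor plate guidance cue netrin-1, had 815 bp in wild type and 2128 bp in shPCGF5, and H3K27me3 covered 3094 and 6796 bp.

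Genes of mature neurons were marked in shorter stretches. Of 251 channel and receptor genes 18 (7.17%) were kept, 31 (12.4%) were lost and 25 (9.96%) were gained, against 2.53%, 2.46% and 1.65% of all genes. Grm4, a metabotropic glutamate receptor, had 0 bp in wild type and 1173 bp in shPCGF5. Calcium and sodium channel genes had 8 lost and 4 gained of 42. Summed covered length was 19128 and 14881 bp, and with equal numbers of peaks 12340 and 14881 bp, so no direction can be given here either. Clustered protocadherins, adhesion proteins that give neurons a surface identity, had 0 kept, 0 lost and 3 gained genes of 24 (Pcdha3, Pcdhb21 and Pcdhgc5). That is 12.5% gained, against 1.65% of all genes. With q-values of at most 0.01 or the higher-scoring 50% of each list, only 1 of the 24 genes still had covered bp in shPCGF5. Pcdhgc5 had 0 and 1116 bp of H2AK119ub1 and 6026 and 19279 bp of H3K27me3. Lists that should carry little Polycomb mark had few marked genes, with 1 of 79 ribosomal protein genes, 0 of 112 proteasome and mitochondrial ribosome genes and 3 of 1087 olfactory receptor genes in any class.

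The 10 gained genes with the most coverage held several loci of repeated DNA. Gm10722 had 0 and 3179 bp, Muc19 had 0 and 2258 bp, Dux had 0 and 1917 bp, and Gm10800 had 0 and 1415 bp. Dux, a homeobox gene of the early embryo, lies in a tandem array, and reads from such arrays may map to several copies, so these calls are uncertain. Foxf2 had 834 and 2077 bp, Grm4 0 and 1173 bp, Ecel1 0 and 989 bp, and Ppp1r9b, a synaptic scaffold gene, 0 and 932 bp. Over all gained peaks, 34.9% (33.0 to 36.9) had central 32 bases that occurred more than once in the assembly, against 14.3% (13.3 to 15.4) of lost peaks and 21.0% of kept wild type peaks. At start sites the shares were closer, 12.1% of gained, 7.45% of lost and 8.39% of kept peaks. Without the peaks of repeated centre 497 genes were lost and 343 were gained.

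Lost and gained peaks differed in CG content and in place around the start site. Among peaks at start sites, the central 300 bases held a median of 5 CG dinucleotides in lost peaks, 11 in kept wild type peaks and 20 in gained peaks, while 300 bases around the first start site of all protein-coding genes held a median of 15. At least 10 CG were found in 27.4% (25.3 to 29.6) of lost, 55.6% (51.9 to 59.1) of kept and 70.0% (66.7 to 73.0) of gained start-site peaks, and in 59.0% of all start-site windows. Of the printed windows, Lhx5 had 4 CG in 300 bases, Pou3f2 15 in 219 bases and Nes 17 in 154 bases. The Pou3f2 and Nes windows were chosen after their values were seen. The windows chosen by score at Gm10722 (gained) and Hes3 (kept) had 7 and 0 CG in 300 bases, fewer than the medians of their classes. Of the lost start-site peaks 16.3% (14.6 to 18.2) had their centre within 500 bp of a start site, and of the gained ones 38.8% (35.5 to 42.2). The difference in CG was present at both distances, with medians of 9 in lost and 29 in gained peaks within 500 bp and of 5 and 14 beyond.

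**Figure D4:**
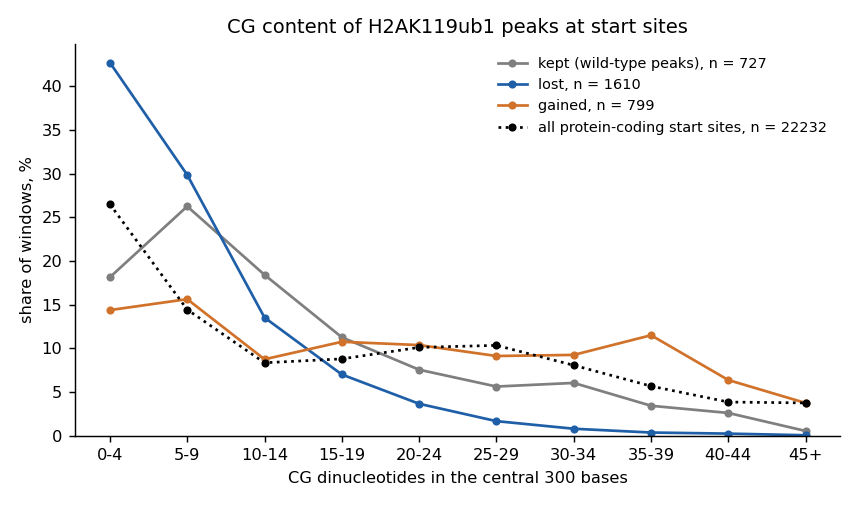
Share of start-site H2AK119ub1 peaks in percent by the number of CG dinucleotides in their central 300 bases, for kept, lost and gained peaks and for 300 bases around the first start site of all protein-coding genes (dotted). Lost peaks gather at the left, with 42.7% below 5 CG, and gained peaks spread to the right.

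The same measures were taken in the other pairs of lists. H3K27me3 peaks that only shPCGF5 NPC had at start sites held a median of 5 CG and those only wild type NPC had held 8, which is the opposite order. In ES the H2AK119ub1 peaks of shPCGF5 alone had a median of 6 and those of wild type alone 8. The shift towards CG-rich start sites in shPCGF5 was thus seen in the NPC pair of H2AK119ub1 lists and in neither of these other pairs.

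Around the first start site of kept genes, wild type peaks were rare at the site itself and frequent on both sides. The site lay in a wild type peak at 11.2% of kept genes, the position 1250 bp downstream at 34.7% and the position 750 bp upstream at 23.5%. In shPCGF5 the site was covered at 12.8% of the same genes, the position 1250 bp downstream at 24.9% and the position 750 bp upstream at 10.0%. Close downstream the lists differed little or the other way, with 17.3% in wild type and 21.7% in shPCGF5 at 250 bp and 24.2% and 23.7% at 500 bp. Coverage was lower in shPCGF5 at the upstream positions and farther downstream, with 30.6% and 12.8% at 2000 bp. Coverage of gained genes was highest 250 bp downstream, at 15.3%.

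**Figure D5:**
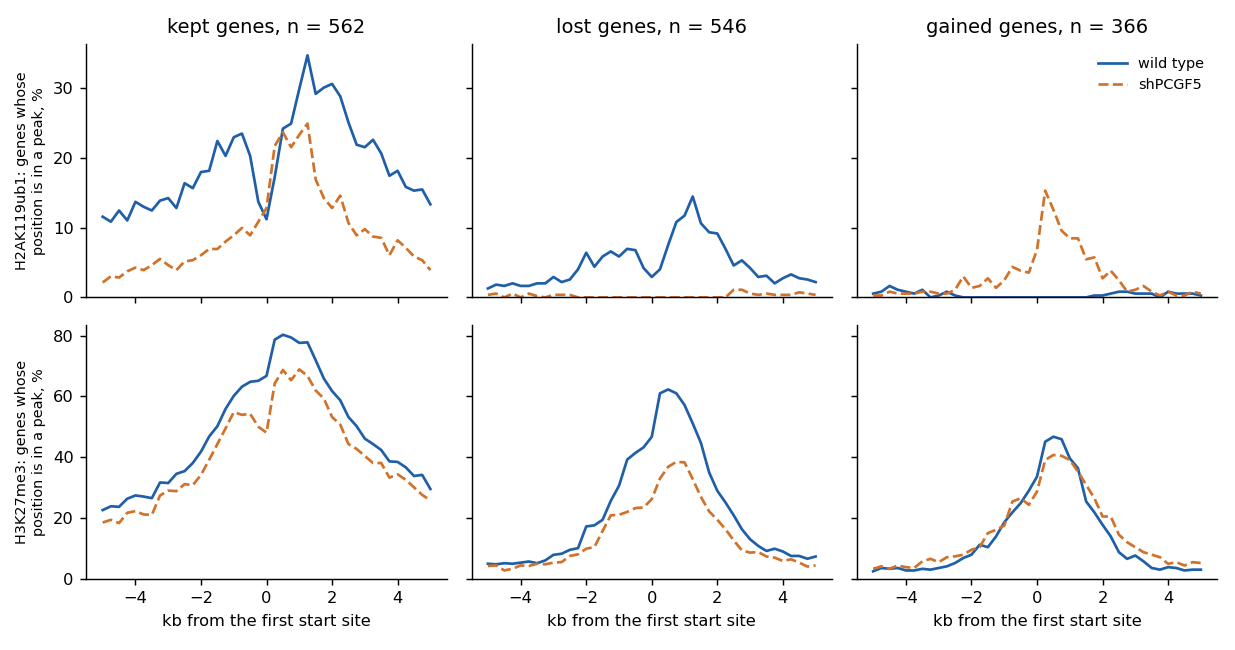
Share of genes in percent whose position at a given distance in kb from the first start site (downstream positive) lay in a peak of H2AK119ub1 (top) or H3K27me3 (bottom), for kept, lost and gained genes in wild type (solid) and shPCGF5 (dashed) NPC. The classes were defined by H2AK119ub1, so the upper lost and gained panels show the definition; in kept genes the 2 H2AK119ub1 lines lie at 11.2% and 12.8% at the start site, cross close to it and part upstream and farther downstream.

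H3K27me3 was not used to define the classes. At start sites it was called in both NPC lists at 96.1% of kept, 81.0% of lost and 69.9% of gained genes, against 11.9% of all genes (15.7% in the wild type and 15.5% in the shPCGF5 list). It was called in wild type alone at 11.9% (9.45 to 14.9) of lost genes and in shPCGF5 alone at 1.83%. Of the gained genes 5.46% had it in wild type alone and 13.1% (48 of 366) in shPCGF5 alone. Most genes of either class thus kept H3K27me3, and where the calls differed they more often went with the H2AK119ub1 class. By covered length, H3K27me3 was shorter in shPCGF5 at 444 of 562 kept and 438 of 546 lost genes, while among gained genes it was shorter at 169 and longer at 157 of 366. Over all 22232 genes H3K27me3 was shorter at 2736 and longer at 1564, so shorter coverage was the more frequent direction in general. A start-site peak of Flag-PCGF5 was present at 26.3% (22.9 to 30.1) of kept, 18.9% (15.8 to 22.4) of lost and 22.1% (18.2 to 26.7) of gained genes, against 13.7% of all genes. The intervals of lost and gained genes overlapped. Of the kept genes 15.5% had no H2AK119ub1 peak in either ES list, against 56.0% of lost and 48.6% of gained genes. Over all genes, 6.69% had such a peak in wild type ES and 5.96% in shPCGF5 ES.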

How the data were processed

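H2AK119ub1 was measured by chromatin immunoprecipitation and sequencing in 1 wild type and 1 shPCGF5 NPC library. The chromatin was cut with micrococcal nuclease, and the fragments were then lightly fixed. Per the methods, the authors trimmed reads (Trimmomatic), mapped them on mm9 (Bowtie2), took out duplicates (Picard) and called peaks by MACS2 (version 2.1.0 in the submitters' processing notes). One list was deposited for each library, and which control each call used is not given in the sources used here. Every peak in the deposited lists carries its score, fold ratio over background, −log10 p-value and −log10 q-value, with no read totals, so depth is unknown. Drosophila spike-in chromatin was added by the authors, and no value of it was used here. Lists differ in length, and the lowest −log10 p-value was 4.02 in both.

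Peaks were intersected with a minimum of 1 bp and assigned to start sites of 22232 protein-coding gene names (GENCODE M1, NCBIM37) within 2500 bp of the peak centre. Covered length is the number of bp in peaks within that distance of a gene's start sites. The windows of all start sites of a gene were joined, so window length differed between genes. Shares carry 95% Wilson intervals. Members and gene lists were chosen with earlier results of these data known. Named genes were the 10 of each class with the most covered bp, up to 4 for each list and class, and the study's genes, and any other named gene was chosen after its values were seen. CG was counted in both strands at once, since the motif reads alike on each. Printed windows that met an annotated UTR were passed over, and peaks on chromosome 18 were not considered for printing. Scripts used python 3.11.15, pandas 2.3.3, numpy 2.4.6, scipy 1.17.1, pysam 0.24.0, numba 0.67.0, bedtools 2.31.1 and matplotlib 3.10.9, and were tested on simulated peaks with planted overlaps. Sox1, which matched no protein-coding name of the annotation, the Flag-PCGF5 list of ES and the H3K27me3 lists of ES were not analysed here. Alternatives were stricter overlap, stricter q-value, the higher-scoring 50%, equal numbers of peaks, merged peaks, autosomes and other start-site windows. Results for a few genes are not reported here.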

Additional observations from a re-analysis of the deposited data

Results flagged for a closer look

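Each measure below is given as shPCGF5 minus wild type in ES and in NPC, and was picked out because the difference had opposite signs in the 2 cell types. With 1 library in each of the 4 groups, the difference between cell types was not tested.

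Hox genes and the developmental transcription factors had more covered length in shPCGF5 ES and less in shPCGF5 NPC. Near the start sites of Hox genes H2AK119ub1 peaks covered 41.2 kb in wild type ES and 71.6 kb in shPCGF5 ES, a difference of 30.4 kb. In NPC they covered 191.6 kb and 48.3 kb, a difference of -143.3 kb. Near the transcription factors they covered 184.6 kb and 222.7 kb in ES, a difference of 38.0 kb, and 450.3 kb and 166.7 kb in NPC, a difference of -283.6 kb. Over all genes the covered length was smaller in shPCGF5 in both cell types, by -81.8 kb in ES and -496.4 kb in NPC.

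Peak shape also went opposite ways. The median peak width was 217 bp in wild type ES and 222 bp in shPCGF5 ES, and it was 265 bp and 216 bp in NPC, a difference of -49 bp. The median fold over background was 4.61 and 4.00 in ES and 4.35 and 4.91 in NPC, differences of -0.610 and 0.565.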

How the results depend on the processing

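No paired analysis was possible because each group had 1 library, and for the same reason no library could be left out. Depth is unknown, the lists differ in length, and a gene near the calling limit can be lost or gained without a difference in signal. Over the alternatives, 44 values of the main results moved within their interval or within 1.5 times, 36 moved further and 1 reversed. The reversed one was the log2 ratio of gained to lost genes, -0.58 as reported, which was 0.38 with equal numbers of top-scoring peaks and -0.034 with a window of 1000 bp. The cause was not tested. The share of wild type peaks kept was 14.5% with at least 50% overlap, 21.6% in the higher-scoring 50%, 30.9% with equal numbers, 27.4% after merging and 45.2% when a peak within 1000 bp counted. For shPCGF5 peaks these were 34.3%, 34.1%, 35.1%, 36.8% and 55.4%, and 40.2% at q-values of at most 0.01. Genes kept, lost and gained were 290, 352 and 228 in the higher-scoring 50%. With a window of 1000 bp 335 were kept and 340 lost, and with equal numbers 351 were lost. Start-site shares with that window were 15.5% of lost, 22.7% of gained and 23.4% of kept peaks. They were 39.8% of lost and 45.4% of kept peaks with 50% overlap, 31.9% of gained peaks after merging, and 40.6% of lost and 48.3% of gained peaks with a single-copy centre. Lost peaks had H3K27me3 in shPCGF5 in 66.5% with 50% overlap, 64.2% at the stricter q-value, 74.4% in the higher-scoring 50%, 68.1% with equal numbers and 50.6% after merging. Gained peaks had it in wild type in 57.2%, 55.1%, 63.4%, 56.4% and 45.1%, in the same order. The single-copy filter, the gene-group counts and the covered lengths were added after seeing the data. Of 72 such other values 55 stayed within these limits and 17 moved, among them the share of kept genes with fewer covered bp, which was 64.7% with equal numbers and 61.2% with the window of 1000 bp, against 69.6% as reported.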

Other observations

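Several pluripotency genes had no H2AK119ub1 peak at their start sites in either NPC list while their H3K27me3 calls differed. H3K27me3 peaks covered 1822 bp at Utf1 in wild type and 0 bp in shPCGF5, 1049 and 0 bp at Tdgf1, which encodes a Nodal co-receptor, and 698 and 0 bp at Lefty2, an inhibitor of Nodal. At T, the mesoderm gene brachyury, the values were 3819 and 2703 bp.

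Peaks on the sex chromosomes were few. Chromosome X had 44 H2AK119ub1 peaks in each NPC list, of which 4 overlapped. Chromosome Y had 0 peaks in wild type and 35 in shPCGF5, and for H3K27me3 it had 2 and 31 peaks.

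Away from start sites, 47.7% of gained and 18.5% of lost peaks had central 32 bases that occurred more than once in the assembly.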
